A study of Mus musculus with 4 samples.

Results

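The enzymes and transporters that carry glucose to lactate, to acetyl-CoA and into the pentose phosphate pathway were followed through 4 RNA-seq samples. The 36 genes were taken by name from the steps of these pathways (transporters, glycolytic enzymes, the pyruvate dehydrogenase entry and 4 pentose phosphate enzymes), out of 37620 genes in the deposited counts. All 36 were found, and all 36 were among the 14263 genes with at least 1 CPM (counts per 1000000 counts on genes, after scaling of the library totals) in at least 1 sample.

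The study asked how the signalling inputs of mouse embryonic stem cells (mESCs) set their state. mESCs of the line R1 were grown for 2 days in medium with serum. In 2i-L they received CHIR99021 (3 µM), which inhibits GSK3, together with PD0325901 (1 µM), which inhibits MEK, and no LIF, the cytokine that signals through JAK. A JAK inhibitor (2 µM) was added to both inhibitors in 2iJ. The growth factor BMP4 (10 ng/ml) and an inhibitor of the receptor ALK5 (10 µM) were further added in 2iJ+B-A. The paper used this inhibitor to block Activin/Nodal signalling, for which -A stands in the name. The TSC sample was F4 trophoblast stem cells, also labelled day 2, with no treatment in the labels. Cell type and line both differed from those of the mESCs, and the medium of the TSCs is not in the labels, so the parts of these cannot be told apart. Each condition is 1 sample of 1 line, so no value below carries a spread between cultures and no test between conditions was made. Intervals are 95% Clopper-Pearson intervals and cover counting error only.

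Glycolysis splits glucose into 2 molecules of pyruvate through a chain of cytosolic enzymes, most of which exist as several isozymes encoded by separate genes. Pyruvate is then reduced to lactate and exported, or enters the mitochondria and is oxidized by pyruvate dehydrogenase, which pyruvate dehydrogenase kinases switch off. A side branch, the pentose phosphate pathway, makes NADPH and the sugar of nucleotides. Many glycolytic genes are known targets of HIF1 and MYC, transcription factors whose sites are often built on ACGTG and CACGTG. Pluripotent cells are known for high glycolytic flux. RNA levels measure neither flux nor protein.

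Depth was similar in the 4 samples, between 33913984 and 36964392 counts on genes, and 3 counts, the smallest signal taken as detectable, corresponded to 0.0799 to 0.0902 CPM. The samples carried the markers of their labels. The summed level of 8 mESC markers was 5206 CPM (2i-L), 4622 CPM (2iJ), 2825 CPM (2iJ+B-A) and 708 CPM (TSC), where Utf1 went against the list at 174 CPM. The summed level of 8 trophoblast stem cell markers was 346, 406, 1347 and 3627 CPM in the same order, with Elf5 at 298 CPM (TSC) and at no more than 0.133 CPM in the 3 mESC samples. Krt8 (553 CPM) and Krt18 (521 CPM) made up most of the sum in 2iJ+B-A, where Eomes went against the list with 2.74 CPM against 10.7 CPM for 2iJ (log2 ratio -1.78), and Tfap2c had 113.5 CPM against 142 CPM. Markers of other cell types had summed levels of at most 47.9 CPM for embryonic fibroblasts, 35.0 CPM for primitive endoderm, 4.11 CPM for mesoderm and 28.0 CPM for differentiated trophoblast. The primitive endoderm sum was 5.59, 5.85, 24.9 and 35.0 CPM in the same order. Of its 5 measured markers, 4 had a log2 ratio of at least 1 in 2iJ+B-A over 2iJ, beside 5.81% of all genes. The 28.0 CPM of differentiated trophoblast was all Gcm1 in 2iJ+B-A, against 5.62 CPM for 2iJ (log2 ratio 2.22). The 2iJ+B-A sample differed from 2iJ in these markers as well as in the genes below, and the part of the one in the other was not tested. In bulk samples, fewer cells of a type and less RNA per cell cannot be told apart.

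The promoters of 4 genes are shown here, from the RefSeq promoter table on GRCm38.p6 (250 bases before to 50 bases after the annotated start, 5′ to 3′ on the gene's strand). These were Ldha, Hk2, Slc16a3 and Pfkp, which had their highest mESC level in 2i-L and their lowest in 2iJ+B-A. The windows shown for Ldha, Hk2 and Slc16a3 hold ACGTG, a 5-letter core of HIF1 and MYC sites, and that of Pfkp does not. The search was for ACGTG and CACGTG only. The GCGTG form of the HIF1 core, which the Pfkp window holds, was not searched. The 4 genes were chosen with their levels known. Capitals mark ACGTG on either strand (CACGT is its reverse complement), and CACGTG is an overlap of both. The windows lie at chr7:46845554-46845853 (plus strand) for Ldha, chr6:82774405-82774704 (minus) for Hk2, chr11:120948817-120949116 (plus) for Slc16a3 and chr13:6648722-6649021 (minus) for Pfkp.
Ldha: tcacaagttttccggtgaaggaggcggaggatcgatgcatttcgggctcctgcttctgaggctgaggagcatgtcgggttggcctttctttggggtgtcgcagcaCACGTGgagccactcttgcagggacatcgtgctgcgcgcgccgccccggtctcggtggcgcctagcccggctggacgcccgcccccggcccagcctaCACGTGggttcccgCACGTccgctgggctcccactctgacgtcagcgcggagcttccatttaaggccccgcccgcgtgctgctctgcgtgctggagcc
Hk2: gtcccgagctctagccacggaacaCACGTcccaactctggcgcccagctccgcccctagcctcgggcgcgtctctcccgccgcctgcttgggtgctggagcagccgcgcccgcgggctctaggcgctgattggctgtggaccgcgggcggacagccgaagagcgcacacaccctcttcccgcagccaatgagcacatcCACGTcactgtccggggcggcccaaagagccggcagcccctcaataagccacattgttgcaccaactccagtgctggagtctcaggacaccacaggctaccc
Slc16a3: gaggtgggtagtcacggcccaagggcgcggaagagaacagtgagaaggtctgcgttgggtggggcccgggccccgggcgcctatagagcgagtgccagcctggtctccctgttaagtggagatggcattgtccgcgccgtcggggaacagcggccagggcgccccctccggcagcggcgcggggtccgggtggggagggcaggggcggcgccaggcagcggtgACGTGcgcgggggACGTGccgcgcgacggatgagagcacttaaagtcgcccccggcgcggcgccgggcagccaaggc
Pfkp: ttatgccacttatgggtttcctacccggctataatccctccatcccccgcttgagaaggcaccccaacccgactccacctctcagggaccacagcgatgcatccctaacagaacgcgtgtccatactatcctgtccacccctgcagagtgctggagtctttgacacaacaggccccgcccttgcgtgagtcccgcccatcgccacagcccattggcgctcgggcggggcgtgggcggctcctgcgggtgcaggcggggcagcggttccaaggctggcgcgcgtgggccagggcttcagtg

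The table has 2 windows for Ldha. The one shown holds 5 matches, including both strands of CACGTG at 2 places, and the other, at chr7:46846832-46847131, holds 0. Of the other genes shown, the Hk2 and Slc16a3 windows hold 2 matches each, and the Pfkp window holds 0. How often ACGTG goes with that order of levels was not counted over all genes. Among other members that fell from 2i-L to 2iJ to 2iJ+B-A, ACGTG stood in a window of Hk1, Pfkfb3, Aldoa, Aldoc, Gapdh and Pgk1. It also stood in a window of Pgam1, Pkm2, Slc16a1, Pdk3 and G6pdx. Gpi1, Pfkl, Tpi1, Eno1, Eno3, Ldhb, Pdk1, Pgd, Tkt and Taldo1 fell likewise and had no ACGTG in their windows. Promoters were found for 35 of the 36 genes, in 55 windows, with no entry for Slc2a3. ACGTG stood in 23 of these windows (41.8%), against 6447 of all 32851 windows of the table (19.6%). Counted by gene, 19 of 35 (54.3%) had it in at least 1 window, against 21.8% of 27025 genes. The 35 genes had more windows per gene than the table, which raises the share by gene. Windows of a gene can overlap, as for Aldoa, where 2 windows hold the same match. The table was not limited to genes with counts here. The full palindrome CACGTG stood in 6 of 55 windows (10.9%), against 7.15% of all windows. A match is a run of letters and not a measured binding site.

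The 36 genes took 2.06% (2i-L), 1.63% (2iJ), 1.09% (2iJ+B-A) and 1.17% (TSC) of all counts. Gapdh, the glyceraldehyde-3-phosphate dehydrogenase often used as a reference gene, ranked 7 among the most counted genes of 2i-L, 10 of 2iJ, 16 of 2iJ+B-A and 44 of TSC. Among the mESC samples, 27 of the 36 genes were highest in 2i-L and 30 were lowest in 2iJ+B-A, and 25 followed the order 2i-L, 2iJ, 2iJ+B-A downwards. The plot of levels shows this order gene by gene. How many of all genes have these orders was not counted. The level was lower in 2iJ+B-A than in 2i-L for 88.9% of the 36 genes, beside 50.5% of all 14263 genes. In the sentences that follow, 4 values in a row are in the order 2i-L, 2iJ, 2iJ+B-A and TSC.

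**Figure D1:**
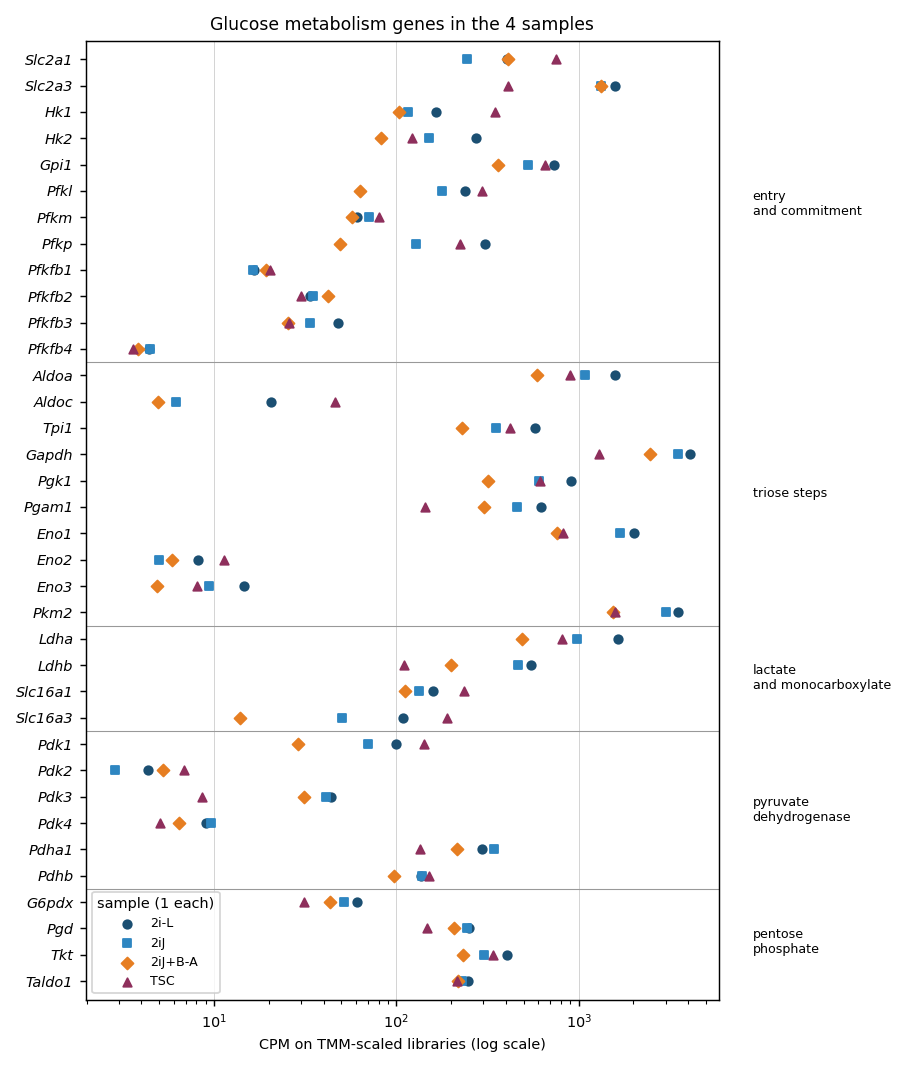
Level of each of the 36 genes (rows, grouped by pathway step) in the 4 samples, as CPM on TMM-scaled libraries on a log axis, 1 symbol per sample. In the triose steps the circles of 2i-L lie right of the squares of 2iJ in all 10 genes, while the triangles of TSC take the highest place for Aldoc and Eno2 and the lowest for Gapdh and Pgam1.

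The comparison of 2iJ with 2i-L addresses the JAK inhibitor in cells that already lacked LIF. A gene was called higher or lower where the log2 ratio of CPM with 0.5 CPM added was at least 1 in size, a 2-fold difference. No gene of the 36 was called higher, and 3 (8.33%) were called lower, beside 1.23% and 0.918% of all 14263 genes. The log2 ratio was below 0 for 30 of the 36 genes (83.3%), beside 49.0% of all genes. Its median was -0.42, beside a median of 0.01 over all genes. All 10 triose genes and all 4 lactate genes were below 0, whereas only 3 of the 6 pyruvate dehydrogenase genes were. Within this comparison the genes called lower were Pfkp, Aldoc and Slc16a3.

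The comparison of 2iJ+B-A with 2iJ addresses BMP4 together with the ALK5 inhibitor, which were always added as a pair. Here 6 genes (16.7%) were called lower, beside 3.17% of all genes, and none was called higher, beside 5.81%. The 6 genes were Pfkl, Pfkp, Eno1, Ldhb, Slc16a3 and Pdk1. The median log2 ratio was -0.51, beside -0.002 over all genes, and 30 of 36 genes (83.3%) were below 0, beside 50.2% of all genes. The 4 lactate and monocarboxylate genes had the lowest median, -1.11, and the 4 pentose phosphate genes ranged from -0.39 to -0.07.

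Against 2i-L, which lacked the JAK inhibitor as well as BMP4 and the ALK5 inhibitor, 2iJ+B-A had 16 of the 36 genes (44.4%) lower, beside 4.52% of all genes, and none higher, beside 7.93%. Of the 10 triose genes, 8 were lower by this measure, with a median of -1.36. The entry block had 4 of 12 called lower, the lactate block 3 of 4 and the pyruvate dehydrogenase block 1 of 6. None of the 4 pentose phosphate genes was called in any comparison, a list too short to set apart from the shares over all genes.

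The comparison of TSC with 2iJ gave calls in both directions. Of the 36 genes, 7 (19.4%) were higher and 7 (19.4%) were lower, beside 19.4% and 17.6% of all genes, so the share of called genes was near the background and only which genes they were is described. Slc2a1, Hk1, Aldoc, Eno2, Slc16a3, Pdk1 and Pdk2 were higher, and Slc2a3, Gapdh, Pgam1, Eno1, Ldhb, Pdk3 and Pdha1 were lower. Against 2i-L, TSC had 2 genes higher (5.56%) and 10 lower (27.8%), beside 19.4% and 17.4% of all genes. The comparisons share the 2iJ or the 2i-L sample and are not independent of each other.

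**Figure D2:**
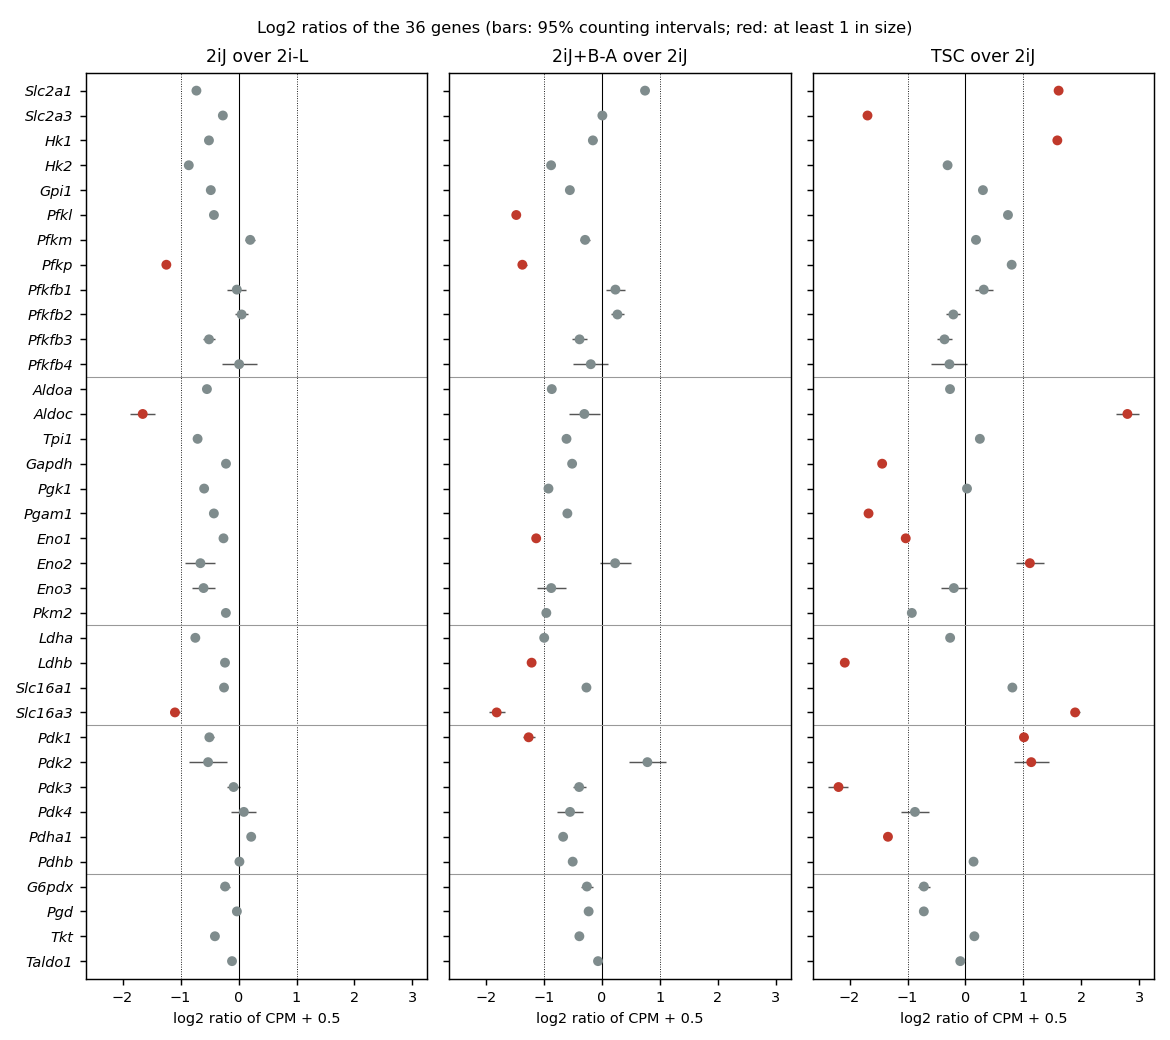
Log2 ratio of CPM with 0.5 CPM added (horizontal axis) for the 36 genes in the 3 comparisons, with 95% counting intervals as bars. Red points are at least 1 in size: 3 lower in the left panel, 6 lower in the middle panel, and 7 higher with 7 lower in the right panel.

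Glucose enters cells through facilitative transporters. Slc2a3 (GLUT3), the high-affinity transporter, was measured at 1593 CPM (2i-L), 1319 CPM (2iJ), 1325 CPM (2iJ+B-A) and 408 CPM (TSC). Slc2a1 (GLUT1) was at 406, 245, 411 and 749 CPM. Slc2a3 was nearly level between 2iJ and 2iJ+B-A (log2 ratio 0.01, interval -0.01 to 0.03) and fell by 1.69 on the log2 scale in TSC. Slc2a1 moved the other way from most of the 36 genes in 2iJ+B-A, with a log2 ratio to 2iJ of 0.74 (0.70 to 0.78), which returned it to its 2i-L level (0.01, -0.02 to 0.05). In TSC it rose by 1.61 (1.57 to 1.64) over 2iJ.

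Levels of different genes can be compared only per length, and shares below are of CPM per kb of exon within a step. By this measure Slc2a1 made up 39.3%, 32.1%, 44.0% and 82.3% of the 2 transporters. The transporter step as a whole was at 362, 268, 327 and 319 CPM per kb.

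Hexokinases trap glucose as glucose-6-phosphate. Hk2, the inducible isozyme, was at 275 CPM (2i-L), 151 CPM (2iJ), 82.1 CPM (2iJ+B-A) and 122 CPM (TSC). Its log2 ratio was -0.86 in 2iJ and -0.88 in 2iJ+B-A, each short of the 2-fold threshold, and -1.74 (-1.80 to -1.68) over both steps. Hk1, the widely expressed isozyme, was at 166, 116, 104 and 349 CPM, so it was lowest in 2iJ+B-A and rose by 1.58 in TSC over 2iJ. The Hk1 share of the 2 hexokinases was 29.6%, 34.9%, 46.9% and 66.7%. These shares depend on the length taken for each gene, and with the longest transcript Hk1 had 43.7%, 49.7%, 62.0% and 78.6%.

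Gpi1, the isomerase that makes fructose-6-phosphate, was at 737, 529, 360 and 651 CPM. It was not called against 2iJ and fell by 1.03 in 2iJ+B-A against 2i-L. Phosphofructokinase, the committed step, is encoded by the liver (Pfkl), muscle (Pfkm) and platelet (Pfkp) isozymes, which combine into tetramers. Pfkp was at 306 CPM (2i-L), 129 CPM (2iJ), 49.4 CPM (2iJ+B-A) and 224 CPM (TSC). It was called lower in both mESC comparisons, by -1.25 (-1.30 to -1.20) and -1.38 (-1.45 to -1.30), and over both together by -2.62.

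Pfkl was at 240, 178, 63.6 and 297 CPM, with the lowest level in 2iJ+B-A (log2 ratio to 2iJ -1.48, -1.55 to -1.41). Pfkm held nearly level at 61.3, 70.5, 57.5 and 80.0 CPM. The make-up of the step moved with them. Pfkl had 50.9% of the CPM per kb in 2i-L and 52.4% (2iJ), and Pfkm had the largest share, 48.9%, in 2iJ+B-A. In TSC Pfkl again led with 57.4%. With the longest transcript as the length, Pfkp (43.4%) and Pfkl (42.5%) stood level in 2i-L, and Pfkm still led in 2iJ+B-A with 41.9%. The summed step was at 107, 77.4, 38.6 and 118 CPM per kb.

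The 4 genes of the bifunctional enzymes that make and remove fructose-2,6-bisphosphate, the activator of phosphofructokinase, were low, between 3.59 CPM (Pfkfb4 in TSC) and 47.9 CPM (Pfkfb3 in 2i-L). None was called in any comparison with 2iJ. Pfkfb3, whose product favours the kinase reaction, was at 47.9, 33.5, 25.4 and 25.9 CPM. Pfkfb1 and Pfkfb2 had their highest mESC levels in 2iJ+B-A, at 19.2 and 42.0 CPM.

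**Figure D3:**
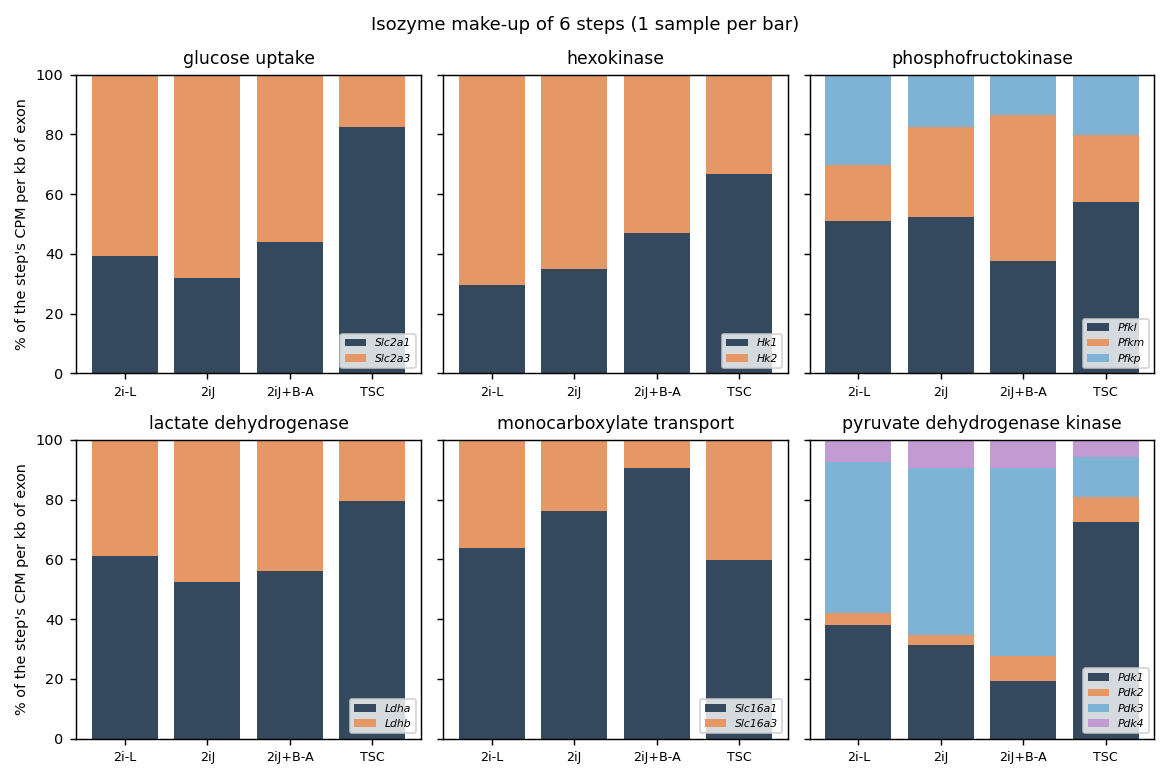
Share of each isozyme in the summed CPM per kb of exon of its step (vertical axis, percent), 1 bar per sample, for 6 steps. TSC stands apart in glucose uptake, where Slc2a1 has 82.3%, and among the pyruvate dehydrogenase kinases, where Pdk1 has 72.4%, and Pfkm has its largest share in 2iJ+B-A (48.9%).

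In the second part of glycolysis, from aldolase to pyruvate kinase, the main isozyme of each step lay in the order 2i-L, 2iJ, 2iJ+B-A from highest to lowest. Aldoa, the main aldolase, was at 1583, 1085, 594 and 901 CPM. Tpi1 (triose phosphate isomerase) was at 576, 353, 230 and 419 CPM. Pgk1, which makes the first ATP of the pathway, was at 911, 604, 318 and 615 CPM. All 3 were lower in 2iJ+B-A than in 2i-L by at least 2-fold, at -1.41, -1.32 and -1.52, and near their 2iJ level in TSC, at -0.27, 0.25 and 0.03.

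Gapdh and Pgam1 (phosphoglycerate mutase) had a different order, with TSC lowest. Gapdh was at 4084, 3515, 2458 and 1297 CPM, and its log2 ratio was -0.22 in 2iJ, -0.52 in 2iJ+B-A and -1.44 (-1.45 to -1.42) in TSC. Pgam1 was at 618, 460, 304 and 144 CPM and fell by 1.67 in TSC. The TSC level of Gapdh was thus more than 2-fold below that of every mESC sample except 2iJ+B-A.

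Some reads of Gapdh may have been counted elsewhere, since its transcript matched 179 other places of NCBIM37 at a cover of at least 50% and an identity of at least 90%. Annotated genes at those places held 0.214% to 0.248% as many counts as Gapdh in the mESC samples and 14.5% (TSC). With these counts added, the log2 ratio of Gapdh in TSC over 2iJ was -1.25. STAR counts only read pairs with 1 best place, so these shares do not say from which copy the reads came.

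Enolase makes phosphoenolpyruvate. Eno1 was at 2014 CPM (2i-L), 1681 CPM (2iJ), 764 CPM (2iJ+B-A) and 822 CPM (TSC). The log2 ratio was -1.14 (-1.16 to -1.12) in 2iJ+B-A and -1.03 (-1.05 to -1.01) in TSC, both over 2iJ. Copies of Eno1 held 18.3% to 19.6% as many counts as Eno1 in the mESC samples and 28.5% (TSC), and with them added the ratio of TSC was -0.93, which is short of the threshold, and that of 2iJ+B-A was -1.15.

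The minor isozymes of these steps were near the low end of the 36. Aldoc, the brain-type aldolase, was at 20.6, 6.20, 4.92 and 46.0 CPM. It had the lowest log2 ratio of the 36 genes in 2iJ over 2i-L (-1.65, -1.87 to -1.44) and the highest in TSC over 2iJ (2.79, 2.60 to 2.99), with at most 4.13% of the aldolase CPM per kb. Eno2, the neuronal enolase, was at 8.15, 4.98, 5.91 and 11.3 CPM and Eno3, the muscle enolase, was at 14.6, 9.41, 4.90 and 8.12 CPM. Eno1 made up 95.5% to 97.9% of the enolase step in every sample.

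Pkm2, the gene of both pyruvate kinase M1 and M2, was at 3518, 3023, 1553 and 1591 CPM. It fell just short of the threshold in 2iJ+B-A (-0.96, -0.98 to -0.95) and in TSC (-0.93), both over 2iJ. Counts per gene do not separate its M1 and M2 splice forms.

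Lactate dehydrogenase interconverts pyruvate and lactate. Ldha, the isozyme that favours lactate, was at 1639 CPM (2i-L), 978 CPM (2iJ), 489 CPM (2iJ+B-A) and 814 CPM (TSC). Each addition to the medium was accompanied by a lower level, at -0.75 (-0.77 to -0.73) and then -0.998 (-1.02 to -0.97), just short of the threshold, and the 2 together gave -1.74 (-1.77 to -1.72). Ldhb, which favours pyruvate, was at 549, 467, 201 and 110 CPM and was called lower in 2iJ+B-A (-1.22, -1.25 to -1.18) and in TSC (-2.08). The Ldha share of CPM per kb was 61.1%, 52.4%, 56.2% and 79.6%.

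The monocarboxylate transporters move lactate and pyruvate across the membrane. Slc16a3 (MCT4), the exporter of strongly glycolytic cells, was at 109 CPM (2i-L), 50.5 CPM (2iJ), 14.0 CPM (2iJ+B-A) and 189 CPM (TSC). It was called in every comparison with 2iJ, at -1.10 (-1.18 to -1.01) against 2i-L, -1.82 (-1.96 to -1.68) in 2iJ+B-A and 1.89 (1.82 to 1.97) in TSC. From 2i-L to 2iJ+B-A the log2 ratio was -2.92, the lowest of the 36 genes. Slc16a1 (MCT1) was at 159, 134, 111 and 235 CPM and was called in none. The Slc16a3 share of the 2 transporters was 36.2% (2i-L), 23.9% (2iJ), 9.48% (2iJ+B-A) and 40.1% (TSC).

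The pyruvate dehydrogenase kinases, which inactivate the complex, differed in make-up between TSC and the mESC samples. Pdk1, a known HIF1 target, was at 99.9 CPM (2i-L), 70.3 CPM (2iJ), 28.9 CPM (2iJ+B-A) and 142 CPM (TSC), with log2 ratios to 2iJ of -1.27 (-1.37 to -1.16) and 1.01 (0.94 to 1.08) in the last 2. Pdk3 was at 43.6, 41.1, 31.1 and 8.60 CPM and fell by 2.19 in TSC. Pdk3 was the main kinase per kb in the mESC samples, with 50.4%, 55.8% and 62.7%, and Pdk1 was in TSC, with 72.4%. The summed kinases were at 33.8, 28.7, 19.4 and 25.2 CPM per kb.

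Pdk2 and Pdk4 were low, at 2.85 to 6.87 CPM and 5.04 to 9.64 CPM. Pdk2 had a log2 ratio short of the threshold in 2iJ+B-A (0.78, 0.47 to 1.10) and was called higher in TSC (1.14, 0.83 to 1.44), where the interval reaches below 1. Of the catalytic E1 subunits, Pdha1 (alpha) was at 294, 342, 215 and 135 CPM and Pdhb (beta) at 137, 138, 97.0 and 152 CPM. Pdha1 was the gene of the 36 with the highest log2 ratio of 2iJ over 2i-L, 0.22, and fell by 1.34 in TSC, where Pdhb was at 0.14.

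The pentose phosphate enzymes stayed within the 2-fold threshold throughout. G6pdx, the entry enzyme, was at 60.8, 51.7, 43.1 and 31.2 CPM. Pgd, the next NADPH-making enzyme, was at 249.1, 244, 208 and 148 CPM. Tkt (transketolase) was at 403, 304, 231 and 338 CPM and Taldo1 (transaldolase) was at 248, 230, 219 and 216 CPM. Their log2 ratios lay between -0.72 and 0.15 in the 3 comparisons with 2iJ, and the lowest against 2i-L was -0.95, for G6pdx in TSC.

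Genes next to these pathways were read from lists of related genes. Of 16 genes of the TCA cycle, which oxidizes acetyl-CoA, none was called in 2iJ or in 2iJ+B-A, also against 2i-L, and the medians were -0.07 and -0.02 over the preceding medium. Of all genes, 1.23% were higher and 0.918% lower in 2iJ over 2i-L, and 5.81% and 3.17% in 2iJ+B-A over 2iJ. Against 2i-L, 7.93% were higher and 4.52% lower in 2iJ+B-A. At these shares, the absence of calls does not set a list of 16 genes apart. The summed level of the TCA genes was 2665, 2544, 2525 and 2945 CPM. Idh3a alone was called in TSC (1.36), beside 19.4% of all genes higher and 17.6% lower. Of 8 other pyruvate entry genes, which include the mitochondrial pyruvate carrier, only Pdp2, a phosphatase that reactivates pyruvate dehydrogenase, was called, in 2iJ+B-A at 1.12. None of the 5 genes of the serine branch was called against 2iJ, with medians of -0.63 in 2iJ and -0.42 in 2iJ+B-A. Lists of 5 and 8 genes are likewise too short to set apart from the shares over all genes.

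The list of HIF pathway genes and hypoxia targets outside the 36 had 24 genes. In 2iJ over 2i-L, 6 were lower and none higher (0.918% and 1.23% of all genes), led by Egln3 (-1.85), an oxygen-sensing hydroxylase, and Vegfa (-1.85), the vascular growth factor, and the median was -0.54. In 2iJ+B-A over 2iJ the list split, with 5 higher and 4 lower (5.81% and 3.17% of all genes) and a median of -0.09. Bnip3 (-1.58), a mitophagy receptor, and P4ha1 (-1.36), a collagen hydroxylase, fell, while Ndrg1 (2.13) and Vegfa (1.72) rose. Vegfa was at 32.2, 8.59, 29.4 and 37.6 CPM, so that it returned to its 2i-L level where Slc16a3 and Pdk1 went lower still.

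In TSC over 2iJ the same list had 7 higher, led by Ndrg1 (4.03) and Anxa2 (2.37), and 4 lower, led by Kdm3a (-2.11) and Mxi1 (-1.55), beside 19.4% and 17.6% of all genes. Hif1a itself was at 155, 173, 154 and 181 CPM and was called in none. Myc was at 4.90, 8.10, 24.1 and 98.4 CPM and its paralog Mycn at 96.0, 122, 73.1 and 26.2 CPM. In 2iJ+B-A over 2iJ Myc was called higher (1.52), and Mycn had a negative ratio short of the threshold (-0.73). In TSC over 2iJ Myc was called higher (3.53) and Mycn lower (-2.20). The part of these regulators in the levels of the 36 genes was not tested. Txnip, which restrains glucose uptake, was at 168, 186, 81.4 and 633 CPM, with -1.19 in 2iJ+B-A and 1.76 in TSC. Lin28b, an RNA-binding protein, was also called lower in TSC (-4.24).

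**Figure D4:**
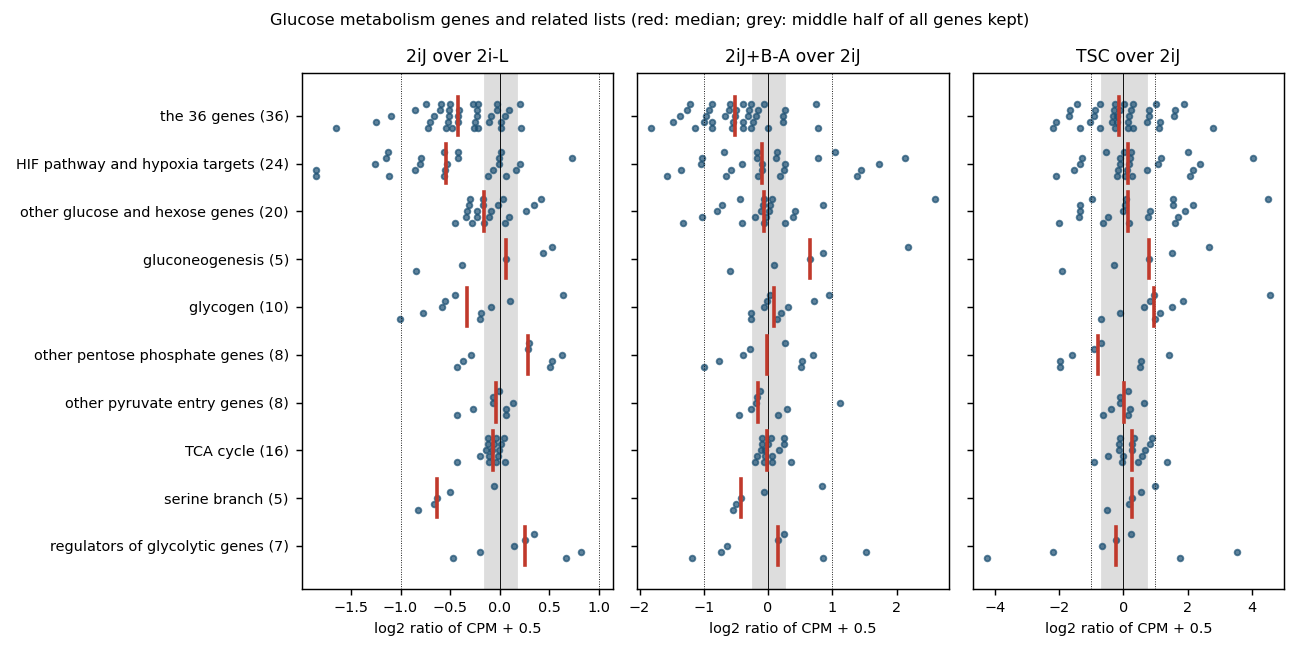
Log2 ratio of each gene (points) of the 36 and of the related lists in the 3 comparisons, with the number of genes in brackets, the median in red and the interquartile range of all 14263 genes in grey (the horizontal axes differ between panels). In 2iJ over 2i-L the medians of the 36 genes and of the HIF list lie left of 0, at -0.42 and -0.54. Single genes of both lie right of 0, among them 6 of the 36. The TCA cycle median (-0.07) stays near 0 there, as does the median of all genes (0.005), and the lists spread to both sides in TSC.

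Of 20 measured genes of glucose entry and hexose metabolism, 1 was higher and 2 were lower in 2iJ+B-A over 2iJ, beside 5.81% and 3.17% of all genes, and 7 were higher and 4 lower in TSC, beside 19.4% and 17.6%. Slc2a12, a further glucose transporter, was at 0.571, 0.932, 8.14 and 31.6 CPM, with log2 ratios of 2.59 and 4.49 over 2iJ. Galk1 (galactokinase) was higher in TSC by 2.18. Ldhd was at 76 counts in 2iJ and at 31 counts in 2iJ+B-A (-1.03), and Ldhd (-2.02) and Tigar (-1.39), a fructose-2,6-bisphosphatase, led the lower genes in TSC.

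Of the glycogen genes, 4 of 10 were higher in TSC, beside 19.4% of all genes, led by the phosphorylases Pygl (4.57, at 15.7, 8.97, 8.60 and 224 CPM) and Pygb (1.87). Pgm2 was the only glycogen gene called among the mESC samples, at -1.003 in 2iJ over 2i-L, beside 0.918% of all genes lower there. Of 5 measured gluconeogenic genes, 1 was higher in 2iJ+B-A over 2iJ, beside 5.81% of all genes. In TSC over 2iJ, 2 were higher and 1 lower, beside 19.4% and 17.6%. Lists of 5 and 10 genes are too short to set apart from these shares. Fbp2, a fructose-1,6-bisphosphatase that runs against phosphofructokinase, was at 6.19, 8.53, 40.2 and 25.3 CPM, higher in 2iJ+B-A by 2.17 and in TSC by 1.51. G6pc3 was higher in TSC by 2.68, and Fbp1 had 55 counts in 2iJ and 2 in TSC. Of 8 other pentose phosphate genes, none was called against 2iJ among the mESC samples, and 8 genes are too few to set apart from the shares over all genes. In TSC over 2iJ, 1 of the 8 was higher and 3 were lower, beside 19.4% and 17.6% of all genes. Pgls was higher there by 1.41, and Prps1, which makes phosphoribosyl pyrophosphate, had a log2 ratio of -1.97. Tktl1 had 50 counts in 2iJ and 0 in TSC.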

How the data were processed

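The authors trimmed the read pairs of directional poly-A libraries for adapters and quality with cutadapt, mapped them to NCBIM37 with STAR 2.4.2a after base calling with CASAVA 1.8.2 (the submitters' processing notes), and deposited whole-number counts per gene without normalization. The batch adjustment of the study's methods is not in these counts, and the annotation release is not given in the sources used here. Reads were taken from the count column for reverse-stranded libraries, and symbols came from the NCBIM37 annotation, which held 37205 of the 37620 gene identifiers.

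TMM factors from edgeR 4.0.16 (size factors from DESeq2 1.42.0 as an alternative, R 4.3.3) scaled the library totals. A gene was kept where any sample reached 1 CPM, and log2 ratios were taken with 0.5 CPM added. With 1 sample per condition no model has replicates to fit, so genes past a log2 ratio of 1 in size were counted and no p-value was computed. Intervals cover counting error only, and read pairs without molecular identifiers are not independent molecules. Isozyme levels were divided by the length of the union of each gene's exons. Transcripts were aligned to NCBIM37 with minimap2 2.31 to find copies. Between 6.72% and 7.01% of read pairs mapped to several places and are not counted. Scripts ran in Python 3.11.15 and were tested on simulated counts.

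The 36 genes and the related lists were chosen with earlier results of these data known. Genes called in a comparison with 2iJ, the most abundant isozyme of each step and, of each related list, the 2 genes with the largest log2 ratio in each direction are described. Regulators are given with their values. The values of 1 gene of the related lists are not reported here.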

Additional observations from a re-analysis of the deposited data

Results flagged for a closer look

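Signals outside the counts used above were looked for on the opposite strand of the 36 genes and at their annotated copies. The opposite strand held a median of 0.253% to 0.389% of a gene's counts. In 4 genes it was over 1% in all 4 samples. In the order 2i-L, 2iJ, 2iJ+B-A and TSC, opposite-strand counts were 500, 579, 666 and 832 for Pfkp, 62, 66, 82 and 80 for Pfkm, 29, 41, 43 and 51 for Pfkfb2, and 158, 165, 85 and 58 for Pdha1. At Pfkp the opposite-strand counts were lowest in 2i-L, where Pfkp itself was highest, and highest in TSC. Relative to the Pfkp count they were 4.91%, 13.1%, 35.9% and 10.6%, with the largest share in 2iJ+B-A, where Pfkp itself was lowest.

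The annotated pseudogene Gm13394, a copy of Gapdh, had 4, 3 and 6 counts in 2i-L, 2iJ and 2iJ+B-A and 6463 counts in TSC. The annotated pseudogene Gm13699, a copy of Eno1, had 100, 75, 41 and 3097 counts in the same order. The Eno1 copy Gm5506 kept a near constant 17.8% to 19.5% of the Eno1 count in all 4 samples. The R1 and F4 lines differ between these samples, and the part of the line in these counts was not tested.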

How the results depend on the processing

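No paired analysis was possible because each condition is 1 sample and no test was made. For the same reason no replicate could be left out. At a log2 ratio of at least 0.5, 15 genes were called in 2iJ over 2i-L (main 3). All 15 were lower, beside 5.43% of all genes lower and 7.24% higher. In 2iJ+B-A over 2iJ, 21 genes were called (main 6). Of these, 2 were higher and 19 lower, beside 14.4% and 10.9% of all genes. In TSC over 2iJ, 10 were higher and 11 lower (main 7 and 7), beside 31.3% and 30.1% of all genes. Set against 2i-L rather than 2iJ, 16 genes were called in 2iJ+B-A with a median of -0.766 (main -0.511), and the median in TSC was -0.454 (main -0.146). Without the 13 genes that have a copy elsewhere in the genome, the median was -0.305 in 2iJ+B-A and 0.181, on the other side of 0, in TSC. The TSC median was -0.07 on total counts without a factor and -0.09 over genes with at least 10 CPM. It lay close to 0 under all of these settings with 2iJ as the reference and gives no direction for the 36 genes in TSC.

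DESeq2 size factors called Ldha lower in 2iJ+B-A (-1.006), and Eno1 lost its call in TSC on total counts (-0.953) and with the counts at its copies added (-0.928), an alternative chosen after seeing the data. Unstranded counts, other pseudocounts and no filter changed no call of the 36 genes. Isozyme shares depended on the length used. With the longest transcript in place of the exon union they moved by up to 15.1 percentage points. Hk1 then had 62.0% of the hexokinases in 2iJ+B-A, and Pfkp (43.4%) stood level with Pfkl (42.5%) in 2i-L. The rise of the Hk1 share from 2i-L to TSC and the lead of Pfkm in 2iJ+B-A (41.9%) were also seen with that length.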

Other observations

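Genes of the serine branch, which starts from a glycolytic intermediate, were also read against 2i-L. Of its 5 genes, 2 were called lower and none higher in 2iJ+B-A against 2i-L, beside 4.52% and 7.93% of all genes. A list of 5 genes is too short to set apart from these shares. Psat1, the aminotransferase that acts after Phgdh in the branch, was at 430, 242, 171 and 170 CPM in 2i-L, 2iJ, 2iJ+B-A and TSC. Shmt2, which passes the carbon of serine to folate in mitochondria, was at 173, 112, 83.6 and 134 CPM. Psat1 and Shmt2 were the 2 genes called lower, at -1.33 and -1.04. Psph (-0.72) and Shmt1 (-0.61) had negative ratios short of the threshold in the same comparison. Phgdh, the first enzyme of the branch, was higher in 2iJ+B-A than in either other mESC sample, at 102, 71.6, 128 and 142 CPM. These genes were chosen after their values were seen.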
